A study of Homo sapiens with 12 samples.

Results

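The TNF superfamily, the ligands and receptors of the tumour necrosis factor family, was followed across 4 human breast lines in the deposited table of gene counts. Members were the rows whose symbol is TNFSF or TNFRSF with a number and, for some, a letter, which gave 31 of 29744 rows, 11 ligands and 20 receptors. Relatives that carry another symbol, such as TNF, FAS and NGFR, are given apart from these members further on. Of the 31 members, 20 had enough counts for a test (edgeR's filterByExpr), 7 of the 11 ligands and 13 of the 20 receptors. By role these were all 5 receptors with a death domain, all 4 decoy receptors and 4 of the 11 receptors that bind TRAF adaptors.

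RNA was sequenced in 12 libraries, 3 biological replicates from each line. A10 is MCF10A, mammary epithelial cells listed as non-tumorigenic. NeoT is MCFNeoT, which the design lists as benign hyperplasia, T1 is MCFT1, listed as atypical hyperplasia, and CA1 is MCFCA1, listed as invasive. The design sorts the lines by malignancy, calls all of them triple-negative, and states as its purpose the quality and reproducibility of a preparation of DNA, RNA and peptides. As background, NeoT is MCF10A transfected with mutant HRAS, and T1 and CA1 descend from it through growth as xenografts, so that all lines share 1 parent and all but A10 carry the oncogene. The labels name no treatment. Each stage is 1 line, so that stage and line cannot be told apart. Nothing in the labels beyond the words "biological replicate" says that replicates were separate cultures, and p-values then measure only the spread between these libraries.

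TNF superfamily ligands are mostly trimers made as membrane proteins, which bind receptors with cysteine-rich repeats outside the cell. Receptors with a death domain can recruit FADD or TRADD and lead to caspase activation or to NF-kB signalling, and receptors without one recruit TRAF proteins, which lead to NF-kB and MAP kinase signalling. Decoy receptors bind ligand but lack a working death domain or a membrane anchor. In epithelium the family is best known for apoptosis through TRAIL (TNFSF10) and for inflammatory signalling, and many ligands and receptors are chiefly known from lymphocytes.

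Libraries held 18032399 to 35730423 counts. Values below are CPM, counts scaled to a common library size with TMM factors, which do not correct for gene length and are compared only between lines. HRAS averaged 239.5 ± 21.7 CPM in NeoT, 158.2 ± 11.9 in T1 and 301.9 ± 11.9 in CA1, against 64.5 ± 4.59 in A10 (SD, n = 3). T1 replicate 1 had 7.76% of its counts in rRNA rows, against 0.954% to 2.18% in the other libraries, and NeoT replicate 3 had r of 0.9776 to 0.9784 with its own line, against 0.9831 to 0.9891 for other pairs within a line. NeoT also stood apart in its epithelial markers. Of 10 such markers 7 were lower and 2 higher in NeoT than in A10. The 10 together summed to 10270 to 10510 CPM in NeoT and 7250 to 7911 CPM in A10. Most of the NeoT sum was ITGB4, which averaged 9355 CPM in NeoT and 1061 CPM in A10. KRT5, most abundant of the 10 in A10, averaged 40.2 CPM in NeoT against 3347 CPM in A10. CDH1 averaged 0.691 ± 0.452 CPM in NeoT against 312.7 ± 16.3 CPM in A10. TP63 was at 0 in NeoT. The leukocyte markers PTPRC and CD3E were at 0 in all 12 libraries. The summed CPM of PTPRC, CD3E, CD14, CD68, ITGAM and LYZ was 204.0 to 219.6 in NeoT, most of it CD68, against 70.7 to 74.9 in A10. Of the 4 leukocyte markers tested, CD68 was higher in NeoT than in A10, CD14 and ITGAM were lower, and LYZ was not called. CD14 averaged 53.45 CPM in NeoT and 64.09 CPM in A10, and ITGAM was at 0 in NeoT. The 8 fibroblast markers summed to 611 to 679 CPM in NeoT, with THY1 at 0, against 73.5 to 79.1 CPM in A10. Nearly all of both sums was DCN, which averaged 632.4 CPM in NeoT and 69.1 CPM in A10. Of the 5 fibroblast markers tested, 2 were higher in NeoT than in A10 and 3 were not called. Of the receptors that the label triple-negative refers to, PGR was at 0 in every library, ESR1 was at most 1.47 CPM, and ERBB2 averaged 77.8 CPM in A10 and 58.5 in NeoT, with 199.6 in T1 and 201.6 in CA1.

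Of the 20 members tested, 19 differed among the 4 lines (edgeR's quasi-likelihood test of the lines together, Benjamini-Hochberg adjusted p under 0.05), beside 89.8% of all 14417 genes tested. Members whose counts passed only because 1 line was high had to differ, so these counts describe the members and support nothing further. In NeoT against A10, 18 were called, 14 lower and 4 higher, where 70.4% of all genes were called, 36.7% lower and 33.7% higher. The 14 were 6 ligands (TNFSF4, TNFSF9, TNFSF10, TNFSF13, TNFSF14 and TNFSF15) and 8 receptors (TNFRSF6B, TNFRSF9, TNFRSF10A, TNFRSF10C, TNFRSF11A, TNFRSF12A, TNFRSF14 and TNFRSF25). The 4 higher members were the receptors TNFRSF1A, TNFRSF10B, TNFRSF10D and TNFRSF21. The median log2 difference of the 20 was -1.07, beside -0.04 over all genes tested. Most of the epithelial markers above also differed between NeoT and A10, as did 2 of the 5 fibroblast markers tested, chiefly DCN. So did the adipocyte markers, of which all 5 tested were higher in NeoT than in A10. The 6 adipocyte markers on the list summed to 81.8 to 94.8 CPM in NeoT, with ADIPOQ at 0, and 4.78 to 5.20 CPM in A10. The 4 endothelial markers summed to 2.59 to 3.49 CPM in NeoT and 7.14 to 10.3 CPM in A10. The part of these markers in the results was not tested.

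In T1 against A10, 12 were called, 6 higher and 6 lower, where 51.9% of all genes were called, 26% higher and 25.9% lower. TNFSF12, TNFSF13, TNFRSF10B, TNFRSF10D, TNFRSF11A and TNFRSF21 were higher, and TNFSF4, TNFRSF1A, TNFRSF6B, TNFRSF9, TNFRSF10C and TNFRSF25 were lower. In CA1 against A10, 18 were called, 9 higher and 9 lower, where 70.9% of all genes were called, 34.4% higher and 36.5% lower. The higher ones were 1 ligand, TNFSF9, and 8 receptors, namely TNFRSF6B, TNFRSF10A, TNFRSF10B, TNFRSF10D, TNFRSF11A, TNFRSF12A, TNFRSF14 and TNFRSF21. The lower ones were 5 ligands (TNFSF4, TNFSF10, TNFSF12, TNFSF14 and TNFSF15) and 4 receptors (TNFRSF1A, TNFRSF9, TNFRSF10C and TNFRSF25). The medians over the 20 were -0.03 for T1 and 0.09 for CA1, beside -0.01 and -0.02 over all genes. All 3 comparisons share the A10 libraries. Marker lists differed here too. Of the 10 epithelial markers 7 were higher and 3 lower in T1 than in A10, and 5 higher and 4 lower in CA1. The fibroblast markers summed to 1.74 to 2.78 CPM in T1 and 3.63 to 4.74 CPM in CA1, where DCN was at 0. Adipocyte markers summed to 59.8 to 68.5 CPM in T1 and 98.25 to 104.8 CPM in CA1. Nearly all of this was PPARG (40.3 CPM) and LPL (24.3 CPM) in T1 and PPARG (97.3 CPM) in CA1. ADIPOQ was at 0 in both lines, FABP4 in T1 and LPL in CA1. Of the 5 adipocyte markers tested, 3 were higher and 1 lower in T1 than in A10, and 4 higher and 0 lower in CA1. Leukocyte markers summed to 95.86 to 105.2 CPM in T1 and 102.5 to 107.3 CPM in CA1. Of the 4 tested, 2 were higher and 1 lower than in A10 in each of T1 and CA1. CD68 averaged 83.27 CPM in CA1 and 6.686 CPM in T1, against 8.268 CPM in A10. Endothelial markers summed to 82.7 to 90.5 CPM in T1 and 23.7 to 24.99 CPM in CA1, nearly all of it PECAM1. PECAM1 was 41.6-fold higher in T1 than in A10. KDR went the other way, 16.3-fold lower in T1 than in A10 and at 0 in CA1. Of the 3 endothelial markers tested, 1 was higher, 1 lower and 1 not called in each of T1 and CA1 against A10. The part of these markers in the T1 and CA1 results was not tested.

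Among the derived lines, 17 members were called in T1 against NeoT, 12 higher and 5 lower, where 67.4% of all genes were called, 35% higher and 32.4% lower. All 7 tested ligands but TNFSF4 were higher in T1, and TNFSF4 was lower. In CA1 against NeoT, 15 were called, 11 higher and 4 lower, where 66.4% of all genes were called, 33.8% higher and 32.7% lower. TNFSF12 and TNFSF4 were the ligands lower in CA1 than in NeoT, and TNFRSF1A and TNFRSF10D the receptors. In CA1 against T1, 16 were called, 9 higher and 7 lower, where 62.2% of all genes were called, 30.4% higher and 31.9% lower. Of the 9, 8 were receptors and 1 was the ligand TNFSF9, and of the 7, 5 were ligands (TNFSF10, TNFSF12, TNFSF13, TNFSF14 and TNFSF15). The medians over the 20 were 0.88, 1.09 and 0.14 for T1 against NeoT, CA1 against NeoT and CA1 against T1, beside 0.01, 0 and -0.01 over all genes. TNFRSF21 was the only member called higher in the line later in the series in each of the 6 comparisons.

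**Figure D1:**
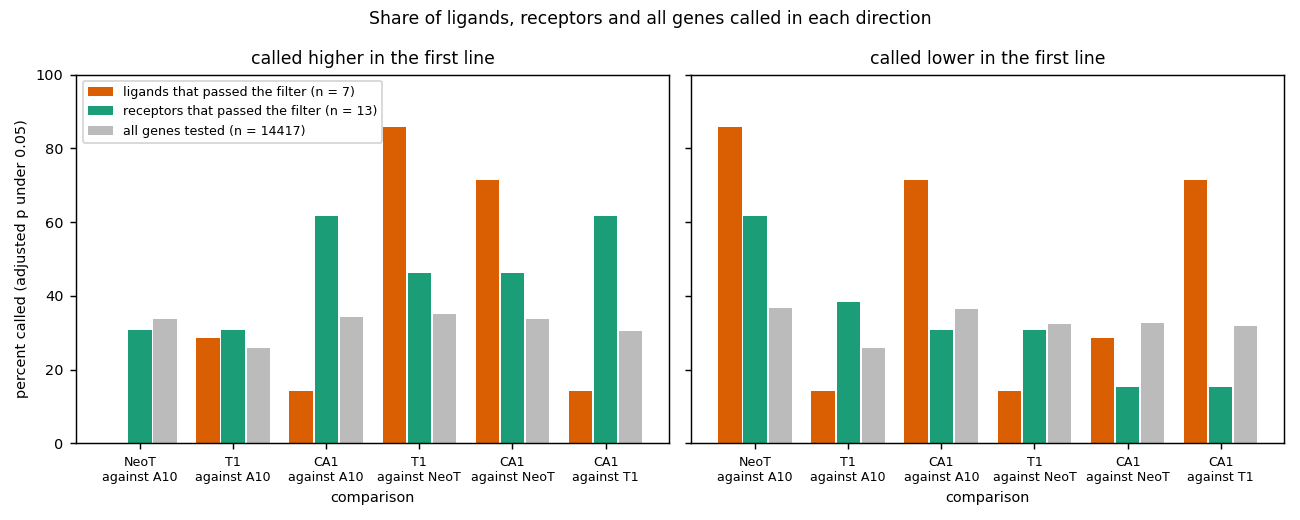
Percent of the 7 ligands and 13 receptors that passed the filter, and of all 14417 genes tested, that were called higher (left) or lower (right) in the first-named line of each comparison (adjusted p under 0.05). Ligands called higher and lower number 0 and 6 in NeoT, 2 and 1 in T1 and 1 and 5 in CA1 against A10, 6 and 1 in T1 against NeoT, 5 and 2 in CA1 against NeoT, and 1 and 5 in CA1 against T1, and receptors number 4 and 8, 4 and 5, 8 and 4, 6 and 4, 6 and 2, and 8 and 2 in the same comparisons.

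The stretches of 250 bases before the RefSeq start are given for 5 members, picked by their values. These are 2 of the members highest in CA1 (TNFSF9 and TNFRSF21) and 3 ligands near 0 in NeoT (TNFSF10, TNFSF14 and TNFSF15). Neither group moved alike in every line. In NeoT against A10, TNFSF9 was lower and TNFRSF21 higher. In CA1, TNFSF10 averaged 6.27 CPM, with TNFSF14 at 0.292 and TNFSF15 at 0.475 CPM. The stretches run 5′ to 3′ on the strand of the gene, in build GRCh38.p14. Capitals mark matches on either strand to 1 of 4 motifs. The AP-1 motif is TGANTCA, where N is any base. The TATA box is searched as TATAAA and the GC box as GGGCGG. The last is the NF-kB motif, given by name, and the pair of NF-kB matches in TNFSF14 overlap each other. The stretches lie at chr19:6530776-6531025 (+) for TNFSF9, chr6:47309906-47310155 (-) for TNFRSF21, chr3:172523431-172523680 (-) for TNFSF10, chr19:6670161-6670410 (-) for TNFSF14 and chr9:114792531-114792780 (-) for TNFSF15. The starts listed for TNFSF14 and TNFSF15 lie inside the spans of their genes, which reach 6670588 and 114806039.
TNFSF9: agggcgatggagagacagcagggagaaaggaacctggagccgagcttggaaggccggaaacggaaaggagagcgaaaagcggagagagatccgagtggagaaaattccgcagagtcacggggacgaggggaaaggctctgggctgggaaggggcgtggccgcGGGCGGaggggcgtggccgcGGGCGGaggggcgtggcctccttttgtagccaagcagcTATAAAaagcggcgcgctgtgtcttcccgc
TNFRSF21: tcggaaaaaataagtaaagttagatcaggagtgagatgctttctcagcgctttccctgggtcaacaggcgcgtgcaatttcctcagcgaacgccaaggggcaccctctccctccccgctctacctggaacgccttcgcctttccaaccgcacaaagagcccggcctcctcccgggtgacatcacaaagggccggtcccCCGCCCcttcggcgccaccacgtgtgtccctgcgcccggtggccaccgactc
TNFSF10: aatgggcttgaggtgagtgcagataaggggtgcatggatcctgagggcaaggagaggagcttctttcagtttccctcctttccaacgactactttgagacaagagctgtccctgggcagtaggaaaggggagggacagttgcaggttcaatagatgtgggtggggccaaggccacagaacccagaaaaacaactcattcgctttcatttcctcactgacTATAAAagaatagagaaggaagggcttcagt
TNFSF14: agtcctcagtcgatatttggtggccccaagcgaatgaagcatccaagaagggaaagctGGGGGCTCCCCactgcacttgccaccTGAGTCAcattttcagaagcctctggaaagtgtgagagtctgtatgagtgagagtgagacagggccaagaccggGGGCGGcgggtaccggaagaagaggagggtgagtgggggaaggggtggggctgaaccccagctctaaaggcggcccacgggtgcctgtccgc
TNFSF15: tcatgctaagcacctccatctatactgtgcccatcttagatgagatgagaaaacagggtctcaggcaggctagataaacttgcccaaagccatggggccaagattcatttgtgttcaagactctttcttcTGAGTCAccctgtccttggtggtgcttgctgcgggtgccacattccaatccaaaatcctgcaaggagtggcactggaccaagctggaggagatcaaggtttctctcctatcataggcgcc

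TNFSF14 and TNFSF15 each held an AP-1 match, with its first base 166 and 120 bases before the start. TNFSF10 and TNFSF9 each held a TATA box, 31 and 30 bases before it. TNFSF9 and TNFSF14 held GC boxes, and TNFRSF21 held 1 GC box and no other match. Of the 20 members with a stretch in the table, 13 were tested for expression. Among these 13, an AP-1 match stood in 3 (TNFSF14, TNFSF15 and TNFRSF9), a TATA box in 2 and a GC box in 8. Over all 35116 stretches searched these were in 6.5725%, 10.7159% and 42.6387%. The NF-kB motif was in 4 of the 13 (TNFRSF9, TNFRSF14, TNFSF13 and TNFSF14) and in 9.9613% of all. A match is a string of letters, not a bound site, and some genes have more than 1 start in the table. A member counted as matched if any of its stretches matched, while the shares are of single stretches, so the 2 are unlike measures. The NF-kB match of TNFSF13 stood in only 1 of its 2 stretches.

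Among the ligands, TNFSF9 (4-1BB ligand, which costimulates T cells through TNFRSF9) was highest in CA1. It stood at 68.99, 64.8 and 68.8 CPM in A10 and at 47.5, 52.5 and 34.8 CPM in NeoT. T1 libraries had 88.6, 79.7 and 74.6 CPM, and CA1 libraries 324, 371 and 322 CPM. Every CA1 library was above every library of the other lines, and every NeoT library was below them. TNFSF9 was 5.02-fold higher in CA1 than in A10 (log2 2.33, SE 0.10, adjusted p = 8.34e-12). It was 4.18-fold higher in CA1 than in T1 (adjusted p = 7.63e-11) and 1.50-fold lower in NeoT than in A10 (adjusted p = 0.000215). T1 and A10 libraries did not overlap, but the log2 difference of 0.26 missed the threshold (adjusted p = 0.0583). It passed without NeoT replicate 2 (0.0321), without NeoT replicate 3 (0.00139), without T1 replicate 3 (0.0467) with the replicate number as a block (0.0439), with DESeq2 (0.0452), with limma-voom (0.0493) and in a fit of those 2 lines alone (0.00328).

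TNFSF10 (TRAIL, which triggers apoptosis through TNFRSF10A and TNFRSF10B) was nearly absent from NeoT. It had 11.8, 9.57 and 11.6 CPM in A10 libraries and 0.174, 0.0431 and 0 CPM in NeoT libraries. The T1 values were 12.4, 12.4 and 11.7 CPM, and in CA1 6.03, 7.55 and 5.24 CPM. The NeoT libraries held 5 counts in all, 4 of them in replicate 1. TNFSF10 was 132-fold lower in NeoT than in A10 (log2 -7.04, SE 0.74, adjusted p = 2.87e-12), and without NeoT replicate 1 the log2 difference was -8.54. A10 and T1 libraries lay close together, with a log2 difference of 0.15 (adjusted p = 0.526), and all CA1 libraries lay below them. The difference of CA1 was -0.81 against A10 (adjusted p = 0.00101) and -0.96 against T1 (adjusted p = 0.000283). T1 was 146-fold above NeoT (log2 7.19) and CA1 75.1-fold (log2 6.23), and these were 8.69 and 7.73 on the log2 scale without NeoT replicate 1.

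TNFSF15 (TL1A, the ligand of TNFRSF25) was low in both NeoT and CA1. A10 replicates 1 to 3 had 12.6, 11.3 and 9.79 CPM of TNFSF15 and NeoT replicates 0, 0 and 0.232 CPM. T1 replicates had 8.82, 8.51 and 7.77 CPM and CA1 replicates 0.788, 0.259 and 0.377 CPM. All 4 NeoT counts came from replicate 3, and no library of NeoT or CA1 reached the lowest of A10 or T1. The log2 difference was -7.36 for NeoT against A10 (SE 0.87, adjusted p = 1.5e-10) and -4.62 for CA1 against A10 (SE 0.47, adjusted p = 1.63e-09). Without NeoT replicate 3 the remaining NeoT libraries were at 0, and without NeoT replicate 1 or 2 the first difference was -6.75 or -6.74. CA1 was above NeoT by 2.74 on the log2 scale (adjusted p = 0.00368), which was 2.13 and 2.12 without NeoT replicate 1 or 2 and lost its call in a fit of those 2 lines alone (adjusted p = 0.0576). T1 was above NeoT by 6.93 (6.32 and 6.31 without NeoT replicate 1 or 2). All T1 libraries were below all A10 libraries, with a difference of -0.43 that missed the threshold (adjusted p = 0.179) but passed with limma-voom (0.0211) and in a fit of those 2 lines alone (0.0102).

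TNFSF14 (LIGHT, which binds TNFRSF14 and the lymphotoxin beta receptor) was likewise low in NeoT and CA1. It stood at 2.24, 3.44 and 2.28 CPM in A10 and at 0, 0 and 0.174 CPM in NeoT. T1 libraries had 2.63, 2.21 and 2.08 CPM, and CA1 libraries 0.282, 0.302 and 0.293 CPM. A10 and T1 overlapped, CA1 lay below both, and NeoT held 3 counts, all in replicate 3. By counts, TNFSF14 in NeoT was 54.2-fold lower than in A10 (95% counting interval 18.3 to 265) and 48.9-fold lower than in T1 (16.5 to 239). The fitted log2 difference of NeoT from A10 was -5.63, and -5.03 or -5.02 without NeoT replicate 1 or 2. That of T1 over NeoT was 5.44, and 4.84 or 4.83 without those libraries. CA1 was 8.88-fold lower than A10 (adjusted p = 1.98e-05) and 7.78-fold lower than T1 (adjusted p = 5.64e-05). CA1 was 6.19-fold above NeoT by counts (1.82 to 32.7; adjusted p = 0.0138), and this call was lost without NeoT replicate 1 (0.0591), without NeoT replicate 2 (0.0615) and in a fit of those 2 lines alone (0.0847). Without NeoT replicate 3 both remaining NeoT libraries were at 0, and counting intervals here and elsewhere cover counting error only.

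TNFSF4 (OX40 ligand, another T cell costimulator) was lower in each derived line than in A10. It had 3.12, 2.33 and 2.42 CPM in A10 libraries and 0.567, 0.561 and 1.22 CPM in NeoT libraries. For T1 they were 0.0712, 0.0949 and 0 CPM, and in CA1 0, 0.0863 and 0 CPM. A10 lay above NeoT, and NeoT above T1 and CA1, with no overlap at either step. Relative to A10, the log2 difference was -1.77 in NeoT (adjusted p = 0.00620) and -5.37 in T1 (adjusted p = 3.3e-06). CA1 held 2 counts, both in replicate 2, which made it 87.4-fold lower than A10 (23.9 to 726) and 24.0-fold lower than NeoT (6.29 to 204) by counts, and without that library CA1 was at 0. CA1 and T1 overlapped, and CA1 was 1.92-fold lower than T1 by counts (0.315 to 20.2), which did not pass the test.

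TNFSF12 and TNFSF13 (TWEAK, the ligand of TNFRSF12A, and APRIL, a B cell survival factor) lie next to each other on chromosome 17. TNFSF12 stood at 7.31, 9.36 and 5.38 CPM in A10, 6.50, 6.25 and 6.27 in NeoT and 11.6, 12.3 and 12.02 in T1, and had no count in any CA1 library. At a floor of 3 counts over the line it was at least 157-fold lower in CA1 than in A10, at least 137-fold lower than in NeoT and at least 259-fold lower than in T1. T1 libraries were all above A10 and NeoT, by 0.71 and 0.92 on the log2 scale (adjusted p = 0.00453 and 0.000468). NeoT and A10 overlapped (adjusted p = 0.342).

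TNFSF13 had 8.67, 6.95 and 5.27 CPM in A10 libraries and 3.18, 2.54 and 2.15 CPM in NeoT libraries. In T1 there were 11.8, 14.5 and 13.00 CPM, and in CA1 6.64, 6.56 and 5.20 CPM. T1 lay above all other libraries and NeoT below them, while CA1 and A10 overlapped. The log2 difference was -1.40 for NeoT (adjusted p = 9.53e-06), 0.91 for T1 (adjusted p = 0.000519) and -0.19 for CA1 against A10 (adjusted p = 0.388). TNFSF13 was present in CA1, the line where TNFSF12 had no count. A separate row, TNFSF12-TNFSF13, holds the read-through transcript, and estimated counts can be split between it and the single genes. It stood at 0.226, 0 and 1.73 CPM in A10 and 0.698, 0 and 0 CPM in NeoT, with 1.74, 0 and 0 CPM in T1 and no count in CA1.

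The genes on either side of the pair, looked up after the values of TNFSF12 were seen, were present in all lines. POLR2A, the large subunit of RNA polymerase II, averaged 143.6 ± 20.3 CPM in A10 and 78.7 ± 5.97 in NeoT, with 135.3 ± 2.38 in T1 and 118.1 ± 13.3 in CA1 (SD, n = 3). SENP3, a SUMO protease, averaged 71.1 ± 3.08 CPM in A10 and 68.8 ± 7.34 in NeoT, with 72.2 ± 3.40 in T1 and 61.9 ± 5.61 in CA1. In GRCh38.p14 POLR2A spans chr17:7484366-7514616, TNFSF12 chr17:7549058-7557881, TNFSF13 chr17:7558282-7561601 and SENP3 chr17:7561919-7571969.

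**Figure D2:**
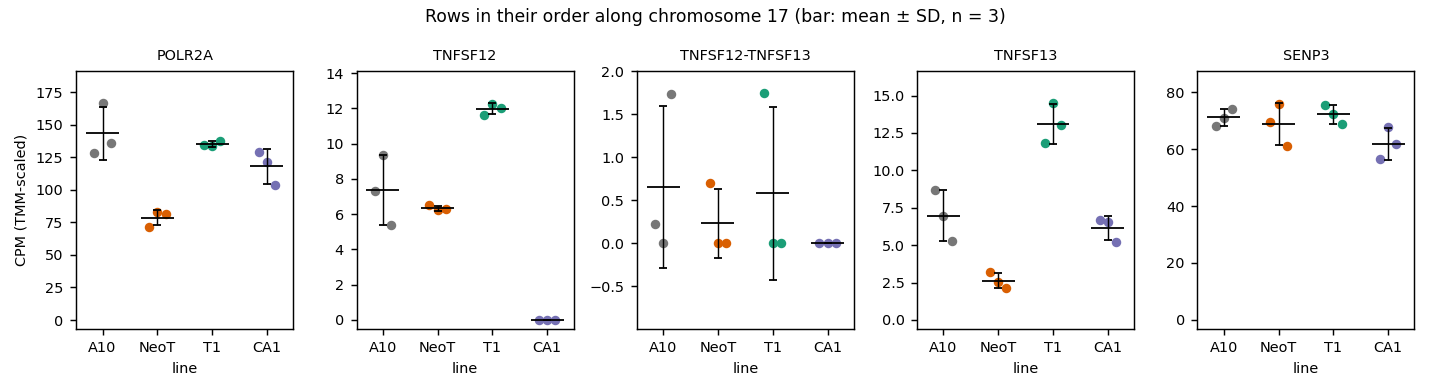
CPM (TMM-scaled) of POLR2A, TNFSF12, the read-through row, TNFSF13 and SENP3 in the 12 libraries, in the order of the genes along chromosome 17; points are libraries and bars mean ± SD (n = 3). TNFSF12 is at 0 in all 3 CA1 libraries, where TNFSF13 stands at 5.20 to 6.65 CPM and both outer genes are present.

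Among the receptors with a death domain, TNFRSF21 (DR6, studied chiefly in T cells and neurons) was higher at each step of the series. It stood at 50.99, 48.2 and 45.4 CPM in A10 and at 89.8, 82.9 and 87.4 CPM in NeoT. T1 libraries had 289.7, 276 and 306 CPM, and CA1 libraries 405, 411 and 404 CPM. No lines overlapped. On the log2 scale the difference from A10 was 0.85 in NeoT (SE 0.07, adjusted p = 1.29e-09), 2.59 in T1 (SE 0.06, adjusted p = 6.34e-16) and 3.08 in CA1 (SE 0.06, adjusted p = 3.18e-17). These are 1.80-fold, 6.02-fold and 8.43-fold. The largest step between neighbours was T1 over NeoT, 3.35-fold, and CA1 was 1.40-fold above T1 (adjusted p = 2.19e-06).

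TNFRSF1A, the main receptor of TNF, was highest in NeoT. It had 129.9, 138 and 139 CPM in A10 libraries and 399.8, 384 and 350.3 CPM in NeoT libraries. The T1 values were 109.5, 109 and 108 CPM, and in CA1 121, 128 and 113 CPM. All NeoT libraries were above all others, T1 was below A10 and CA1 without overlap, and CA1 was below A10. TNFRSF1A was 2.79-fold higher in NeoT than in A10 (log2 1.48, SE 0.06, adjusted p = 6.06e-13) and 1.25-fold lower in T1 than in A10 (adjusted p = 0.000535). CA1 differed from A10 by -0.17 on the log2 scale (adjusted p = 0.0275), and that call was lost without A10 replicate 2 (0.0732), A10 replicate 3 (0.0872), CA1 replicate 1 (0.0578) or CA1 replicate 3 (0.143). CA1 and T1 did not overlap but did not pass (adjusted p = 0.0649), and passed without NeoT replicate 3 (0.0196) or CA1 replicate 3 (0.0373), with DESeq2 (0.0404) and in a fit of those 2 lines alone (0.0136).

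The 2 TRAIL receptors with a death domain, TNFRSF10B and TNFRSF10A, were present in every library of all 4 lines. TNFRSF10B (DR5) had 190.2, 178 and 181 CPM in A10 libraries and 239.6, 256 and 242 CPM in NeoT libraries. For T1 they were 219, 208 and 214 CPM, and in CA1 247, 269 and 249 CPM. All derived libraries were above all A10 libraries, and CA1 and NeoT overlapped. The log2 difference from A10 was 0.42 in NeoT (adjusted p = 4.45e-06), 0.23 in T1 (adjusted p = 0.00400) and 0.48 in CA1 (adjusted p = 9.98e-07).

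TNFRSF10A (DR4) stood at 23.6, 25.02 and 25.8 CPM in A10 and at 19.2, 19.3 and 21.9 CPM in NeoT. T1 libraries had 27.9, 24.97 and 25.02 CPM, and CA1 libraries 31.98, 34.5 and 29.8 CPM. NeoT was the lowest line and CA1 the highest, each without overlap, and T1 and A10 overlapped. Relative to A10, the log2 difference was -0.30 in NeoT (adjusted p = 0.00978) and 0.37 in CA1 (adjusted p = 0.00197). CA1 was above T1 by 0.30 (adjusted p = 0.00974), and the call was lost without CA1 replicate 2 (0.0587). The 4 TRAIL receptor genes TNFRSF10A to TNFRSF10D are close relatives that lie together on chromosome 8, so that reads shared between them may be divided with error.

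TNFRSF25 (DR3, the receptor of TNFSF15) was highest in A10. It had 6.74, 9.65 and 9.46 CPM in A10 libraries and 2.40, 2.33 and 3.48 CPM in NeoT libraries. In T1 there were 3.20, 1.93 and 2.04 CPM, and in CA1 2.59, 2.59 and 2.72 CPM. All derived libraries were below all A10 libraries, and the derived lines overlapped one another. On the log2 scale the difference from A10 was -1.66 in NeoT (adjusted p = 7.96e-06), -1.84 in T1 (adjusted p = 3.87e-06) and -1.70 in CA1 (adjusted p = 6e-06).

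Of the decoy receptors, TNFRSF6B (DcR3, a soluble decoy for FAS ligand, TNFSF14 and TNFSF15) was highest in CA1 and lowest in T1. A10 replicates 1 to 3 had 184, 198 and 219 CPM of TNFRSF6B and NeoT replicates 187, 164 and 122 CPM. T1 replicates had 105, 107 and 104 CPM and CA1 replicates 308, 336 and 339.5 CPM. NeoT replicate 1 reached the range of A10, and no other lines overlapped. CA1 was 1.64-fold above A10 (log2 0.71, SE 0.10, adjusted p = 2.79e-05) and 3.11-fold above T1 (adjusted p = 3.1e-09), and T1 differed from A10 by -0.93 (adjusted p = 3.08e-06). NeoT differed from A10 by -0.34 (adjusted p = 0.0122), which did not pass without A10 replicate 3 (0.0601). TNFRSF6B overlaps the read-through row RTEL1-TNFRSF6B, which stood at 2.37, 0.907 and 2.22 CPM in CA1 and 0.528, 0 and 0.253 CPM in A10. RTEL1 itself, the helicase gene ahead of it, averaged 12.6 ± 1.20 CPM in CA1 and 24.7 ± 0.798 CPM in A10 (SD, n = 3).

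TNFRSF10C (DcR1, a TRAIL decoy anchored by a lipid) was present chiefly in A10. It stood at 2.51, 2.33 and 2.31 CPM in A10 and at 0.262, 0 and 0 CPM in NeoT. T1 libraries had 0, 0 and 0 CPM, and CA1 libraries 0, 0.389 and 0.209 CPM. All A10 libraries were above all derived libraries. TNFRSF10C was at least 67.4-fold lower in T1 than in A10. The log2 difference from A10 was -4.61 in NeoT (-4.01 without NeoT replicate 2, and at 0 in both libraries without replicate 1) and -3.48 in CA1 (-4.31 without CA1 replicate 2), with adjusted p of 0.000280 and 0.00119. CA1 was at least 6.06-fold above T1 (adjusted p = 0.0121), though 1 CA1 library was also at 0 and the call was lost without CA1 replicate 2 (0.0595). CA1 against NeoT did not pass, except without NeoT replicate 1 (0.0223), and T1 against NeoT missed it (adjusted p = 0.0605) but passed without NeoT replicate 2 (0.0293), NeoT replicate 3 (0.0216) or CA1 replicate 1 (0.0425), and with no filter (0.0497).

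TNFRSF10D (DcR2, a TRAIL decoy with a shortened death domain) was higher in the derived lines. It had 52.8, 60.8 and 54.5 CPM in A10 libraries and 109.5, 115 and 123 CPM in NeoT libraries. The T1 values were 70.2, 74.05 and 68.5 CPM, and in CA1 82.8, 94.3 and 83.2 CPM. The lines did not overlap, and their order was A10, T1, CA1 and NeoT. Relative to A10, the log2 difference was 1.05 in NeoT (SE 0.07, adjusted p = 8.39e-10), 0.34 in T1 (adjusted p = 0.00122) and 0.63 in CA1 (adjusted p = 8.89e-07). The decoys TNFRSF10C and TNFRSF10D were called in opposite directions in every derived line.

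TNFRSF11B (osteoprotegerin, a soluble decoy for RANK ligand) had 0.201, 0.654 and 0.614 CPM in A10 libraries and 0.131, 0.388 and 0.813 CPM in NeoT libraries. For T1 they were 1.57, 1.08 and 0.818 CPM, and in CA1 0.788, 0.518 and 0.545 CPM. Its 4 lines held 41, 26, 98 and 39 counts in all. The joint test of the lines did not pass (adjusted p = 0.113). T1 against NeoT missed the threshold (log2 1.42, adjusted p = 0.0546) and passed without A10 replicate 1 (0.0435), NeoT replicate 3 (0.0121) or T1 replicate 3 (0.0475), with DESeq2 (0.0417) and with limma-voom (0.02). T1 against A10 passed with limma-voom alone of these (0.0256).

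Of the receptors that bind TRAF proteins, TNFRSF12A (Fn14, the receptor of TNFSF12) was highest in CA1, where TNFSF12 had no count. It stood at 174, 185 and 214 CPM in A10 and at 113, 116 and 67.3 CPM in NeoT. T1 libraries had 154, 166 and 140.2 CPM, and CA1 libraries 388, 504 and 449 CPM. CA1 lay above and NeoT below all other libraries, and NeoT replicate 3 was the lowest of all. TNFRSF12A was 2.34-fold higher in CA1 than in A10 (log2 1.23, SE 0.14, adjusted p = 0.000132) and 2.91-fold higher than in T1 (adjusted p = 3.33e-05). NeoT differed from A10 by -0.95 (adjusted p = 0.000956). T1 against A10 did not pass (log2 -0.32, adjusted p = 0.181), but did without NeoT replicate 3 (0.0191) and in a fit of those 2 lines alone (0.00057).

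TNFRSF14 (HVEM, the receptor of TNFSF14 and of BTLA) was also highest in CA1. It had 1.11, 1.02 and 1.34 CPM in A10 libraries and 0.305, 0.518 and 0 CPM in NeoT libraries. In T1 there were 1.39, 0.855 and 0.940 CPM, and in CA1 4.45, 4.79 and 5.82 CPM. NeoT was below all other libraries, CA1 above them, and T1 and A10 overlapped. CA1 was 4.34-fold above A10 (log2 2.12, SE 0.34, adjusted p = 0.000231), and NeoT differed from A10 by -1.97 (adjusted p = 0.00288; -2.73 without NeoT replicate 2). Against NeoT, T1 was higher by 1.84 (2.61 without NeoT replicate 2; adjusted p = 0.0556 in a fit of those 2 lines alone) and CA1 by 4.08 (4.85 without NeoT replicate 2).

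TNFRSF11A (RANK, which drives mammary alveolar growth through RANK ligand in mouse) was highest in T1. A10 replicates 1 to 3 had 7.31, 7.61 and 7.19 CPM of TNFRSF11A and NeoT replicates 1.92, 3.84 and 4.005 CPM. T1 replicates had 18.97, 16.9 and 18.7 CPM and CA1 replicates 12.2, 11.4 and 14.1 CPM. No lines overlapped, and their order was NeoT, A10, CA1 and T1. On the log2 scale the difference from A10 was -1.19 in NeoT (adjusted p = 3.19e-05), 1.30 in T1 (adjusted p = 4.8e-06) and 0.77 in CA1 (adjusted p = 0.000837). CA1 differed from T1 by -0.53 (adjusted p = 0.0118), which did not pass without CA1 replicate 2 (0.0559). TNFSF11, its ligand RANKL, had 3 counts in A10 and 0 in the derived lines.

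TNFRSF9 (4-1BB, the receptor of TNFSF9) stood at 0.678, 0.572 and 1.34 CPM in A10 and 0.0712, 0.0949 and 0.204 in T1, and had no count in NeoT or CA1. It was at least 17.9-fold lower in NeoT than in A10 and at least 18.3-fold lower in CA1, and its log2 difference in T1 was -2.79 (adjusted p = 0.00677). Its ligand TNFSF9 was highest in CA1. The 10 counts of T1 put it at least 2.51-fold above NeoT (adjusted p = 0.0261), and CA1 at least 2.57-fold below T1 (adjusted p = 0.0273). The call of T1 over NeoT was lost without NeoT replicate 1 (0.059), NeoT replicate 2 (0.0598) or T1 replicate 3 (0.0675), and in a fit of those 2 lines alone (0.0701). That of CA1 against T1 was lost without T1 replicate 3 (0.0705) or CA1 replicate 1 (0.0523), 2 (0.0619) or 3 (0.064), and in a fit of those 2 lines alone (0.0631).

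**Figure D3:**
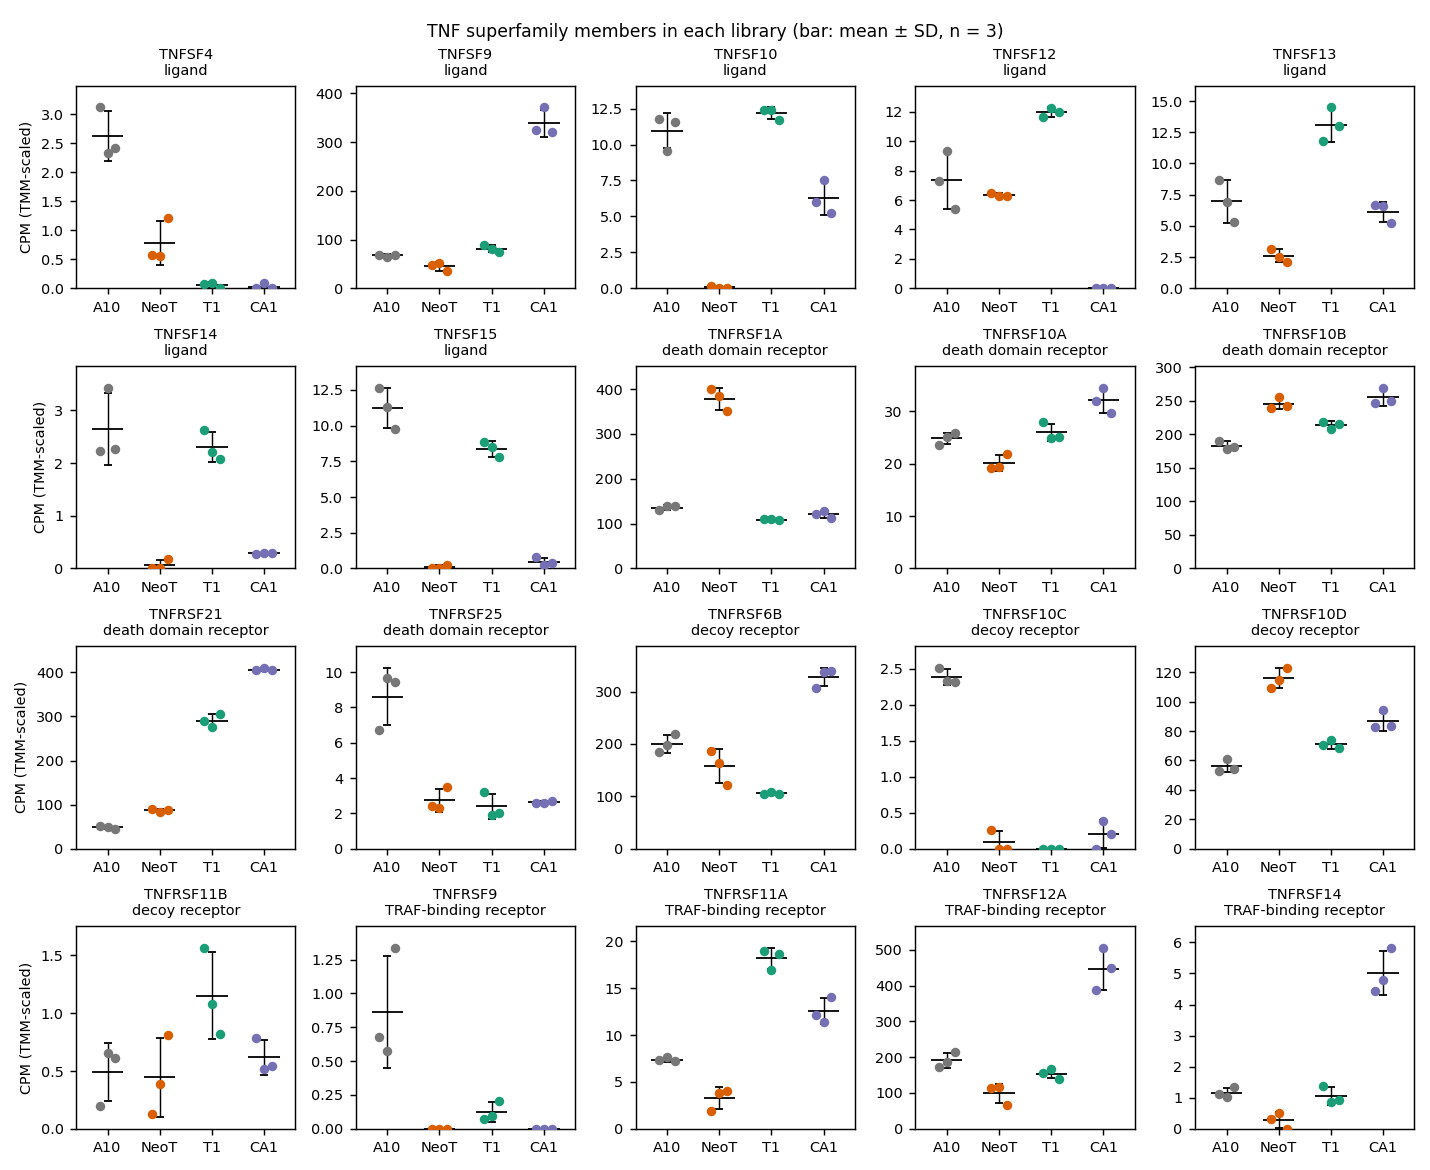
CPM (TMM-scaled, linear axes from 0) of the 20 members that passed the filter in each of the 12 libraries, grouped by line; points are libraries and bars mean ± SD (n = 3). TNFRSF21 is higher at each line of the series, TNFSF9, TNFRSF6B, TNFRSF12A and TNFRSF14 are highest in CA1, TNFRSF1A is highest in NeoT, and TNFSF12 is at 0 in CA1.

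The 11 members that did not pass the filter were TNFSF8, TNFSF11, TNFSF13B, TNFSF18, TNFRSF1B, TNFRSF4, TNFRSF8, TNFRSF13C, TNFRSF17, TNFRSF18 and TNFRSF19. Of these, TNFSF8, TNFRSF8, TNFRSF17 and TNFRSF18 had no count in any library. A count of 0 in all libraries of a line allows a level of 3 counts over it, which is 0.0326 CPM in A10 and 0.0474 in NeoT, with 0.0356 in T1 and 0.0463 in CA1. TNFRSF1B, the second receptor of TNF, held 16 counts in A10 and 0 in the derived lines. TNFSF18 (GITR ligand) held 26 counts in A10, 3 in T1 and none in NeoT and CA1. TNFSF13B (BAFF) held 16, 11, 11 and 16 counts in A10, NeoT, T1 and CA1, and TNFRSF19 (TROY) 3, 0, 28 and 11. TNFRSF13C (the BAFF receptor) held 4 counts in NeoT and 1 in T1, and TNFRSF4 (OX40) held 2 in NeoT and 1 in A10. Fewer cells with a transcript and less of it per cell cannot be told apart in these bulk samples.

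**Figure D4:**
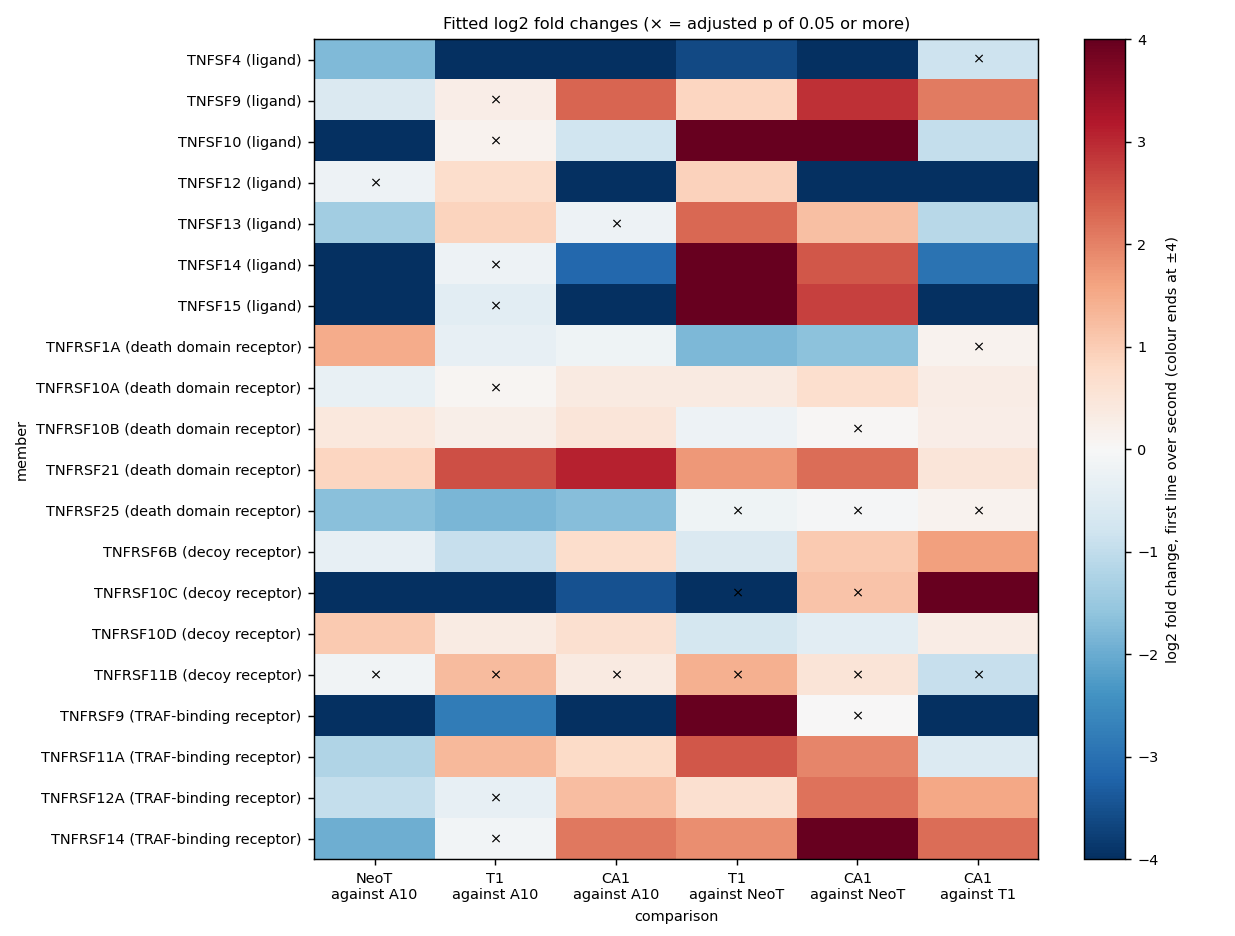
Fitted log2 fold changes of the 20 members (rows, by role) in the 6 comparisons (columns, first-named line over second); colour runs from -4 to 4 and ends there, and crosses mark adjusted p of 0.05 or more. The ligand rows are mostly blue in NeoT against A10, in CA1 against A10 and in CA1 against T1, and TNFRSF21 is red in all 6 columns. Fitted values against a line with no count depend on the prior count and are no measured folds.

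Another 15 relatives, with other symbols, were followed beside these members, and 11 of them passed the filter while LTA, FASLG, CD40LG and CD27 did not. Of the 11, 2 were higher and 8 lower in NeoT than in A10, 0 and 7 in T1, and 2 and 9 in CA1. The counts higher and lower were 4 and 3 in T1 against NeoT, 3 and 1 in CA1 against NeoT, and 3 and 4 in CA1 against T1. The shares of all genes called in each comparison, here and for the lists that follow, are those given above. Means here and for the lists that follow are ± SD with n = 3. NGFR, the low-affinity neurotrophin receptor, averaged 16.3 ± 2.35 CPM in A10 and 1.63 ± 0.901 in NeoT, with 8.65 ± 1.23 in T1 and 167 ± 5.55 in CA1. CD70, the ligand of CD27, averaged 82.02 ± 4.64 CPM in A10 and 26.8 ± 3.12 in NeoT, with 8.40 ± 0.450 in T1 and 31.00 ± 6.85 in CA1. LTBR, the lymphotoxin beta receptor, averaged 241 ± 14.6 CPM in A10 and 431 ± 27.8 in NeoT, with 191 ± 10.2 in T1 and 144 ± 7.33 in CA1. LTBR was highest in NeoT, as was TNFRSF1A. FAS, the death receptor of FAS ligand, averaged 77.8 ± 11.02 CPM in A10 and 30.4 ± 5.36 in NeoT, with 65.9 ± 1.16 in T1 and 41.9 ± 3.14 in CA1. It was called lower than in A10 in NeoT (log2 -1.36, adjusted p = 5.09e-09) and in CA1 (log2 -0.89, adjusted p = 1.2e-06).

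Of 27 adaptors, ubiquitin ligases and caspases that act below the receptors, 25 passed. In NeoT, T1 and CA1, 5, 5 and 4 were higher than in A10 and 12, 9 and 10 lower. Over all genes tested, 33.7%, 26% and 34.4% were higher and 36.7%, 25.9% and 36.5% lower. The medians of the 25 were -0.09, -0.12 and -0.09 on the log2 scale, beside -0.04, -0.01 and -0.02 over all genes. Higher and lower were 9 and 8 in T1 against NeoT, 11 and 8 in CA1 against NeoT, and 7 and 9 in CA1 against T1. RBCK1 (HOIL-1, of the linear ubiquitin ligase) averaged 159.9 ± 12.3 CPM in A10 and 249 ± 9.04 in NeoT, with 250.5 ± 11.99 in T1 and 706 ± 39.1 in CA1. BIRC3 (cIAP2, a ubiquitin ligase of TNF receptor complexes) averaged 122 ± 2.66 CPM in A10 and 125 ± 17.6 in NeoT, with 97.1 ± 3.90 in T1 and 19.5 ± 0.560 in CA1. CA1 was thus the highest line for RBCK1 and the lowest for BIRC3. MAP3K5 (ASK1, a kinase ahead of JNK and p38) was lowest in CA1 at 31.1 ± 1.04 and highest in NeoT at 73.5 ± 9.60 CPM. TRAF3, an adaptor that holds back NF-kB signalling through NFKB2, was lowest in CA1 at 32.6 ± 1.18 and highest in A10 at 66.8 ± 2.65 CPM.

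All 12 NF-kB subunits, kinases and inhibitors on the list passed the filter. In NeoT, T1 and CA1, 4, 2 and 3 were higher than in A10 and 3, 3 and 5 lower. Over all genes tested, 33.7%, 26% and 34.4% were higher and 36.7%, 25.9% and 36.5% lower. The medians of the 12 were 0.02, -0.16 and -0.14, beside -0.04, -0.01 and -0.02 over all genes. Higher and lower were 4 and 5 in T1 against NeoT, 3 and 5 in CA1 against NeoT, and 4 and 5 in CA1 against T1. NFKBIA, the inhibitor that NF-kB itself induces, averaged 168 ± 0.800 CPM in A10 and 188 ± 25.7 in NeoT, with 47.8 ± 5.78 in T1 and 32.9 ± 1.89 in CA1. NFKB1, which encodes an NF-kB subunit, averaged 105 ± 2.75 CPM in A10 and 51.8 ± 2.31 in NeoT, with 58.2 ± 2.17 in T1 and 33.7 ± 2.20 in CA1. Both were lower in T1 and CA1 than in A10, with log2 differences of -1.81 and -2.35 for NFKBIA and of -0.85 and -1.63 for NFKB1. NFKB2, another subunit gene, was lowest in T1 at 58.8 ± 5.23 and highest in CA1 at 111 ± 7.54 CPM. IKBKB, a kinase that marks NFKBIA for destruction, was lowest in NeoT at 32.9 ± 2.15 and highest in CA1 at 69.8 ± 6.32 CPM.

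Of 18 genes known as targets of NF-kB, 17 passed and VCAM1 did not. In NeoT, T1 and CA1, 6, 3 and 3 were higher than in A10 and 9, 11 and 10 lower. Over all genes tested, 33.7%, 26% and 34.4% were higher and 36.7%, 25.9% and 36.5% lower. The medians of the 17 were -0.64, -2.01 and -2.19 on the log2 scale, beside -0.04, -0.01 and -0.02 over all genes. Higher and lower were 5 and 10 in T1 against NeoT, 6 and 9 in CA1 against NeoT, and 6 and 8 in CA1 against T1. IL1B, an inflammatory cytokine, averaged 110.0 ± 2.12 CPM in A10 and 7.24 ± 0.764 in NeoT, with 17.5 ± 0.852 in T1 and 403 ± 7.88 in CA1. SOD2, the mitochondrial superoxide dismutase, averaged 299.7 ± 8.23 CPM in A10 and 707 ± 34.98 in NeoT, with 46.7 ± 0.673 in T1 and 33.01 ± 2.03 in CA1. LCN2, an antibacterial lipocalin, was lowest in NeoT at 0.236 ± 0.0233 and highest in CA1 at 179 ± 10.6 CPM. IL8, the older symbol of CXCL8, a neutrophil chemokine, was lowest in T1 at 14.5 ± 1.37 and highest in NeoT at 157 ± 9.95 CPM.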

How the data were processed

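Libraries were made from DNase-treated total RNA with an NEBNext Ultra kit, per the labels. The authors deposited estimated counts per gene, which come from Salmon going by the name of the table. GRCh38 and limma are named in the submitters' processing notes, and the annotation is not given in the sources used here. Values were rounded to whole counts (10.1% were not whole), and 10297 of 29744 rows had no count. Salmon divides shared reads by estimation, which touches read-through transcripts and close relatives.

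Genes were filtered with edgeR's filterByExpr (14417 left) and scaled by TMM. A quasi-likelihood model of edgeR 4.0.16 in R 4.3.3, with a mean per line, was fitted to all 12 libraries. All 6 pairs of lines and a joint test were made, two-sided, with Benjamini-Hochberg adjustment over all genes and calls at an adjusted p under 0.05. Folds are fitted values. For a line with no count, folds are bounds set by 3 counts over its libraries, and for 1 to 3 counts they are ratios with an exact 95% counting interval. Standard errors (SE) of log2 differences are from limma-voom (limma 3.58.1). On simulated counts of NeoT against A10 over 14417 genes, 82% of 2-fold and 98% of 4-fold changes were called, and 5.26% of calls were false. The simulation changed only a small share of the genes, only in NeoT, and none of low mean CPM. In the data 70.4% of genes were called in NeoT against A10. These rates therefore do not carry over to the real comparisons or to members of few counts.

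All members are named. Of the lists of relatives, adaptors, NF-kB genes and NF-kB targets, the counts and the 4 genes with the smallest adjusted p in the joint test are given. Single cell type markers were not named by that rule but by their values, so they do not stand for their lists. The members and lists were chosen with earlier results of these data known. One further row of the name pattern is not reported here. Alternatives were RLE and upper-quartile scaling, other filters, DESeq2 1.42.0, limma-voom, fits of the compared lines alone, a block for the replicate number, leaving out each library, and glmTreat at a 2-fold change. A fit that drops both T1 replicate 1 and NeoT replicate 3 was added after seeing the data. Sequences and positions are RefSeq's (GRCh38.p14), matched by symbol.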

Additional observations from a re-analysis of the deposited data

How the results depend on the processing

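The count of members called was recomputed under the alternatives other than glmTreat and stayed within 17 to 19 in NeoT against A10, 11 to 15 in T1 against A10, 17 to 20 in CA1 against A10, 15 to 19 in T1 against NeoT, 13 to 16 in CA1 against NeoT and 12 to 17 in CA1 against T1. The joint test gave 18 to 22, the highest without the filter. Against a 2-fold change, glmTreat called 9 members where 18 were called in NeoT against A10, 4 where 12 were in T1 against A10, 10 where 18 were in CA1 against A10, 8 where 17 were in T1 against NeoT, 10 where 15 were in CA1 against NeoT, and 7 where 16 were in CA1 against T1. It tests a larger change by its construction. Of 96 called member differences none turned direction under these settings, 10 lost the call under at least 1 setting other than glmTreat, and 48 lost it under glmTreat. With T1 replicate 1 and NeoT replicate 3 both dropped, TNFSF9 (adjusted p = 0.0264) and TNFRSF12A (0.0427) were also called in T1 against A10, TNFRSF10C (0.0438) and TNFRSF11B (0.0433) in T1 against NeoT, and TNFRSF1A (0.0434) in CA1 against T1.

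The differences that turned sign under an alternative were not called in the model of all libraries. For CA1 against NeoT, TNFRSF25 was 0.0052 with limma-voom and 0.139 where T1 replicate 1 and NeoT replicate 3 were both dropped, and TNFRSF10B was -0.0154 with upper-quartile scaling. With 1 library left out in turn, TNFRSF25 ranged from -0.1454 to 0.1571 there and from -0.4595 to 0.017 in T1 against NeoT. TNFRSF11B ranged from -0.8637 to 0.3015 in NeoT against A10 and from -0.0504 to 0.6221 in CA1 against A10, TNFRSF14 from -0.368 to 0.0168 and TNFSF14 from -0.3019 to 0.0354 in T1 against A10, and TNFSF13 from -0.3571 to 0.0045 in CA1 against A10. TNFRSF10C ranged from -4.93 to 0 in T1 against NeoT, where a line is at 0. The cause was not tested.

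The values showed no pairing of the libraries by replicate number, which cannot tell how the cultures were prepared. Deviations of same-numbered libraries had r of -0.069 to 0.088 over 18 pairs, beside -0.106 to 0.083 over 36 others. With the replicate number as a block, 18, 13 and 18 members were called in NeoT, T1 and CA1 against A10, 17 and 15 in T1 and CA1 against NeoT, and 16 in CA1 against T1, and no call was lost. Depth limits members of few counts, such as TNFRSF9 and TNFRSF11B.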
